A study of Mus musculus with 6 samples.

Results

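The repressors of the circadian clock were followed in liver RNA as a set of 10 genes, chosen by symbol as the negative arm of the core clock and all found among the 24421 genes of the authors' table. They are the period genes *Per1*, *Per2* and *Per3*, the cryptochromes *Cry1* and *Cry2*, *Ciart* (the gene for CHRONO), the Rev-erb receptors *Nr1d1* and *Nr1d2*, and the basic helix-loop-helix repressors *Bhlhe40* and *Bhlhe41* (Dec1 and Dec2). The mRNA libraries came from the livers of 3 WT and 3 *Pai-1*+/- mice. The strain is C57BL/6 in the labels and C57BL/6 J in the paper. The labels give an age of 21 weeks for both groups, while the paper states a slightly lower age. Feeding was without restriction for both groups in the labels, to which the series title adds standard chow. The heterozygotes carry 1 intact *Pai-1* allele in every cell and are described as coming from a cross of *Pai-1*-/- with WT mice. The paper also calls the WT mice their littermates, although that cross gives heterozygotes only, so the origin of the WT mice is not clear. No drug was given to either group. The paper describes both groups as male, while the labels state the sex of the WT mice only. The hour at which livers were taken is not given in the sources used here.

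The counts of single libraries sit in 6 columns headed by numbers that match no sample label, so no column could be given to a genotype. No difference between WT and *Pai-1*+/- livers is therefore reported for any gene, and the authors' own fold changes and p-values were not used in its place. Levels below are the authors' mean of normalized counts, taken over every library after scaling by size factors and named the mean count here. It pools both genotypes, and no SD, n or test accompanies it. The mean counts of all genes sum to 30045982, and 12971 genes have a mean count above 10. Of the 8 hepatocyte markers examined, *Alb* held 7.17% of the sum and the lowest, *Tat*, lay above 99.5% of these genes. The 6 Kupffer cell markers had mean counts from 173 to 2374 and the 6 endothelial markers from 205 to 1273. The 5 stellate cell markers ranged from 135 to 4160, the 4 cholangiocyte markers from 25.8 to 268 and the 3 neutrophil markers in the table from 33.0 to 71.5. The 5 lymphocyte markers did not exceed 35.2, the 3 skeletal muscle markers 3.24, the 3 fat markers 79.2 and the 3 pancreas markers 242. Of the red cell markers, *Hbb-bs*, *Hbb-bt*, *Hba-a1* and *Hba-a2* are listed at 0 and *Alas2* at 2136. A listed 0 is not read here as absence of the RNA, for these or other genes, since the annotation and filters used in counting are not stated. In such bulk samples a lower share of a cell type and less RNA per cell cannot be told apart.

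In the mammalian clock, CLOCK (or NPAS2) and BMAL1, the product of *Arntl*, bind E-box elements and activate the *Per*, *Cry*, *Nr1d1*, *Nr1d2*, *Ciart* and *Bhlhe* genes. PER and CRY proteins then enter the nucleus and inhibit that activator, CIART adds to this inhibition, and BHLHE40 and BHLHE41 compete for the same E-boxes. The Rev-erb receptors close a further loop by repressing *Arntl* through elements that they share with the activating ROR receptors. In liver, Rev-erbs are also known for restraining lipid synthesis genes, and cryptochromes for dampening the response to glucagon. Transcripts of most of these repressors rise and fall through the day, so a mean over animals depends on when the tissue was taken.

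E-boxes recurred in the reference promoters of the set. RefSeq windows on GRCm38.p6, the assembly of mm10, run from 250 bases before an annotated start site to 50 bases after it. Such windows were at hand for 8 of the 10 genes, 9 windows in all because *Per1* has a pair, and not for *Per2* or *Bhlhe40*. The E-box CACGTG, searched on both strands, occurred in 4 of the 8 genes, *Per1*, *Cry1*, *Ciart* and *Bhlhe41*. Of all 27025 genes with a window, 8.09% held it. The related letters CACGTT (E-box-prime) occurred in *Cry1*, *Cry2* and *Nr1d1*, against 5.44% of all genes. The bases before the start sites were from 54.8% (*Nr1d1*) to 73.6% (*Bhlhe41*) G or C, and the shares of all genes were not matched for base composition. The set was also chosen as clock repressors, genes already known as E-box targets. A match to these letters is a description of the sequence and not a measured binding site.

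*Ciart* held 3 E-boxes, starting 116, 58 and 44 bases before its start site. Windows with 3 or more were 29 of 32851, or 0.0883%. The stretches below show the E-boxes in their context, each printed 5′ to 3′ on the strand of the gene and lying before the start site, with every searched motif in capitals. The first lies at chr3:95882252-95882359 (minus strand) for *Ciart*, the second at chr10:85185055-85185148 (minus strand) for *Cry1*, and the third at chr6:145865553-145865588 (minus strand) for *Bhlhe41*. In the GENCODE M21 annotation, the last 10 bases of the *Cry1* stretch and the last 6 of the *Bhlhe41* stretch are already exonic, and the *Ciart* stretch overlaps the span of the antisense gene *C920021L13Rik* without touching an exon.
Ciart: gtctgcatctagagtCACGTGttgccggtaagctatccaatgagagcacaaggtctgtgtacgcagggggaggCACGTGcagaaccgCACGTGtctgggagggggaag
Cry1: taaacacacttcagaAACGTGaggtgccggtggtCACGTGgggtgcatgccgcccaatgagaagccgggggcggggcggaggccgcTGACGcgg
Bhlhe41: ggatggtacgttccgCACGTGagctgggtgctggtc
In *Cry1* the capitals AACGTG are CACGTT read on the other strand, 79 bases before the start site, followed by an E-box 60 bases before it. The final capitals TGACG are the core of the cAMP response element. In *Bhlhe41* the single E-box begins 153 bases before the start site.

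*Per1* carried the most varied set. Its upstream window, at chr11:69098699-69098947 (plus strand) for the part printed, lies inside the *Per1* gene of GENCODE M21 but in no exon. It held 1 E-box at 166 bases before the start site, 1 D-box (TTATGCAA) at 24 bases, 1 Rev-erb and ROR core (AGGTCA, here on the minus strand and so printed TGACCT) at 137 bases and 1 TGACG at 246 bases.
Per1: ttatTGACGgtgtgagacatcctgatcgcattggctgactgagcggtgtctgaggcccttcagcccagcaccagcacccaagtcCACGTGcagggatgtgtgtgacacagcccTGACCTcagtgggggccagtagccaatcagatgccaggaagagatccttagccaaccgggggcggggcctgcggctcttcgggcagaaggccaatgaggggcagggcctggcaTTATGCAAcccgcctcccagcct
The downstream start site of *Per1* had only TGACG, 132 bases before it.

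*Per3* had neither form of E-box in its window but held a pair of D-boxes, the element bound by the PAR bZIP activators DBP, TEF and HLF and by the repressor NFIL3. Both read TTATGTAA and begin 205 and 158 bases before the start site, in a stretch at chr4:151044801-151044885 (minus strand) that lies within the span of *Camta1* and in no exon. D-boxes were searched as TTATGTAA, TTATGCAA and TTACGTAA, which 2.10% of all genes held. A second D-box was present in 18 of the 32851 windows.
Per3: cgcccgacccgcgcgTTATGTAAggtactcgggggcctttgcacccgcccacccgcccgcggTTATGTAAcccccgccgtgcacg
*Per1* and *Per3* were the 2 of 8 repressors with a D-box.

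*Cry2* and *Nr1d1* had E-box-prime without CACGTG. It begins 166 bases before the start site in *Cry2*, in the stretch chr2:92434215-92434293 (minus strand), and 28 bases before it in *Nr1d1*, in the stretch chr11:98775385-98775420 (minus strand), both outside annotated genes. *Cry2* also held TGACG, printed CGTCA, 209 bases before its start site.
Cry2: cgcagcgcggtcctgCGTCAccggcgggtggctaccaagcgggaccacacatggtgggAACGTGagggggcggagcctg
Nr1d1: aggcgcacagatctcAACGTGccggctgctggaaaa
*Nr1d2* had AGGTCA alone, 77 bases before its start site. AGGTCA was found in 2 of 8 repressors, *Nr1d2* and *Per1*, and in 18.1% of all genes, and TGACG in 3 of 8, *Per1*, *Cry1* and *Cry2*, and in 23.0% of all genes, so these short letters are common. The longer TAGGTCA, which contains AGGTCA, and the full cAMP element TGACGTCA, which contains TGACG, occurred in 0 of 8, against 2.97% and 2.03% of all genes. Nothing about the factors follows from letters that a window of this length lacks.

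**Figure D1:**
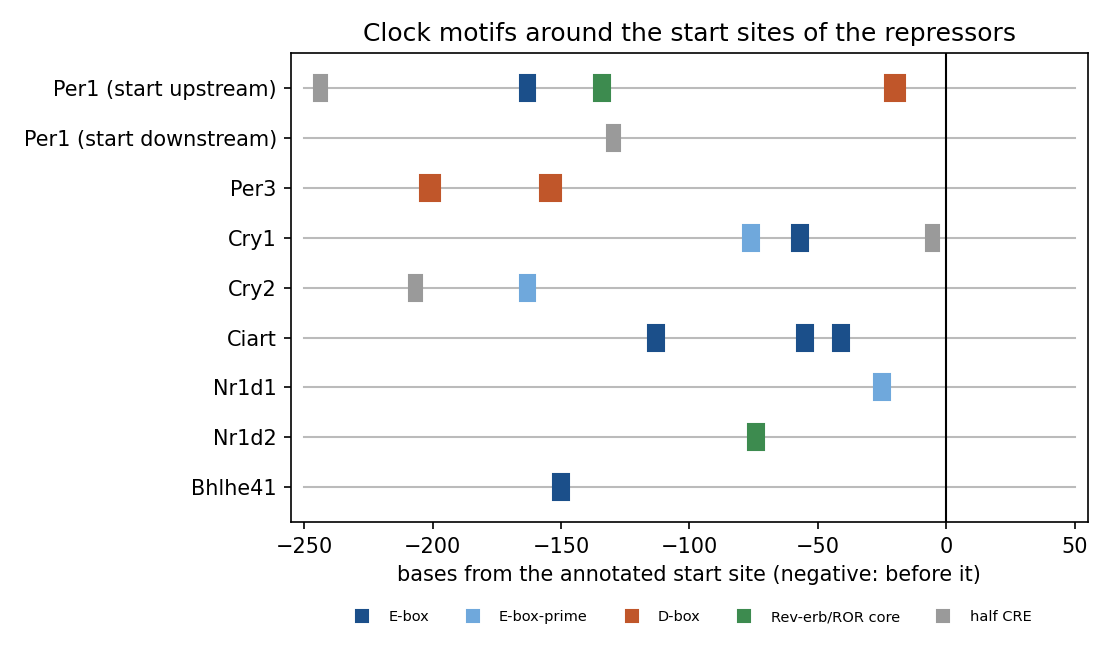
Positions of the searched motifs in the 9 RefSeq windows of 8 repressors, with bases from the annotated start site on the horizontal axis and 1 line for each start site. Coloured boxes are drawn to scale and mark the motif; *Ciart* shows 3 E-boxes within 116 bases of its start site and *Per3* a pair of D-boxes.

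The same letters were counted in the other clock genes of a fixed list, without a test of a difference. Against the share of 8.09% of all genes, CACGTG occurred in 0 of 5 activators with a window (*Arntl*, *Clock*, *Npas2*, *Rora* and *Rorb*) and in 0 of 4 kinases and ubiquitin ligase parts. Among the PAR bZIP factors and *Nfil3* it occurred in 1 of 4, *Tef*. CACGTT was found in the window of *Rorb* alone among these activators. TAGGTCA, absent from the repressors' windows, was present in those of *Arntl*, the textbook target of the Rev-erbs, and of *Nfil3*. TGACG, held by 23.0% of all genes, occurred in 2 of 4 kinases and ligase parts, *Csnk1e* and *Fbxl21*. It was also in 2 of 4 of the PAR bZIP group, *Hlf* and *Nfil3*, and in 0 of 5 activators. AGGTCA (18.1% of all genes) was in *Arntl*, *Clock* and *Nfil3*, and TGACGTCA (2.03%) in *Hlf*. *Timeless*, 1 of 2 period modifiers with a window, held a D-box (2.10%).

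All 10 repressors had a mean count above 10. *Bhlhe40* stood highest with a mean count of 4133, above 92.1% of the genes over 10. *Nr1d2* followed with 2794 and *Nr1d1* with 2173. *Per1* had 1400, *Per3* 1213, *Cry2* 1153 and *Per2* 838. *Ciart* had 486, close to the median of 440 for all genes over 10, while *Cry1* with 321 and *Bhlhe41* with 131 lay below that median. The set as a whole held 0.0487% of all counts, and 4 of its 10 genes lay above the 75th percentile.

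Counts from longer transcripts are higher for the same number of molecules, so genes were compared per kb of their longest transcript in GENCODE M21. *Bhlhe40*, on chromosome 6 from 108660629 to 108666925 (plus strand, 5 exons), had 1328 counts per kb on this scale, or 32.9% of the summed level of the 10 genes. Its paralog *Bhlhe41*, on the same chromosome from 145858243 to 145865558 (minus strand, 5 exons), had 21.3 counts per kb. The level of *Bhlhe40* was 62.2 times that of *Bhlhe41* per kb and 31.5 times per kb of coding sequence, so the size of the gap depended on the length used and its direction did not. Exons of *Bhlhe41* share 1280 bases with *Gm43909*, annotated on the other strand and without a row in the table, and those of *Bhlhe40* share 118 bases with *0610040F04Rik*, an antisense gene with a mean count of 2.82.

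The Rev-erbs were the next most abundant. *Nr1d1* lies on chromosome 11 from 98767932 to 98775333 and *Nr1d2* on chromosome 14 from 18204054 to 18239127, each on the minus strand with 8 exons. Their levels were 799 and 599 counts per kb. The order of this pair is not settled, because per kb of coding sequence *Nr1d2* was higher, at 1617 against 1178. *Nr1d1* shares 263 exonic bases, 8.55% of its annotated exon bases, with *Thra*, the thyroid hormone receptor gene on the opposite strand, whose own level was 135 counts per kb. Strand use in counting is not stated, so reads over these bases may have been assigned to either gene or to none. *Rora*, which codes for an activating receptor of the same elements, had 259 counts per kb, and *Rorb* was listed at 0. The comparison with *Rora* turned with the length used: *Nr1d1* was 3.08 times *Rora* per kb of longest transcript and 0.656 times per kb of coding sequence, and *Nr1d2* was 2.31 and 0.900 times.

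Among the period genes, *Per1* (chromosome 11 from 69095217 to 69109960, plus strand, 23 exons) had 299.7 counts per kb. *Per3* (chromosome 4 from 151003652 to 151044665, minus strand, 21 exons) had 202 and *Per2* (chromosome 1 from 91415982 to 91459324, minus strand, 23 exons) had 144. *Per1* was 2.09 times as high as *Per2* per kb and between 1.63 and 1.74 times on the other scales. Over *Per3* it was 1.48 times as high per kb and 1.97 times over the union of exons, but 0.995 times per kb of coding sequence. *Per3* exceeded *Per2* 1.41-fold per kb of longest transcript, but over the union of all annotated exons, which is long for *Per3* at 9608 bases, it was 0.882 times as high. The place of *Per3* within its family therefore depends on which exons are in use.

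Of the cryptochromes, *Cry2* (chromosome 2 from 92403646 to 92434043, minus strand, 12 exons) was higher than *Cry1* (chromosome 10 from 85131700 to 85185064, minus strand, 13 exons), at 290.1 against 106 counts per kb. The ratio was 2.73, and lay between 1.90 and 3.67 on the other scales. *Cry2* shares 295 exonic bases with *D930015M05Rik* on the opposite strand, which had a mean count of 0.537.

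*Ciart*, on chromosome 3 from 95878503 to 95882251 (minus strand, 5 exons), has the shortest transcript of the set at 1939 bases. Its mean count was the eighth of the 10, but per kb it stood sixth with 251, above *Per3* and *Per2* and 2.36 times *Cry1*. No exon of *Ciart* overlaps that of another annotated gene.

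**Figure D2:**
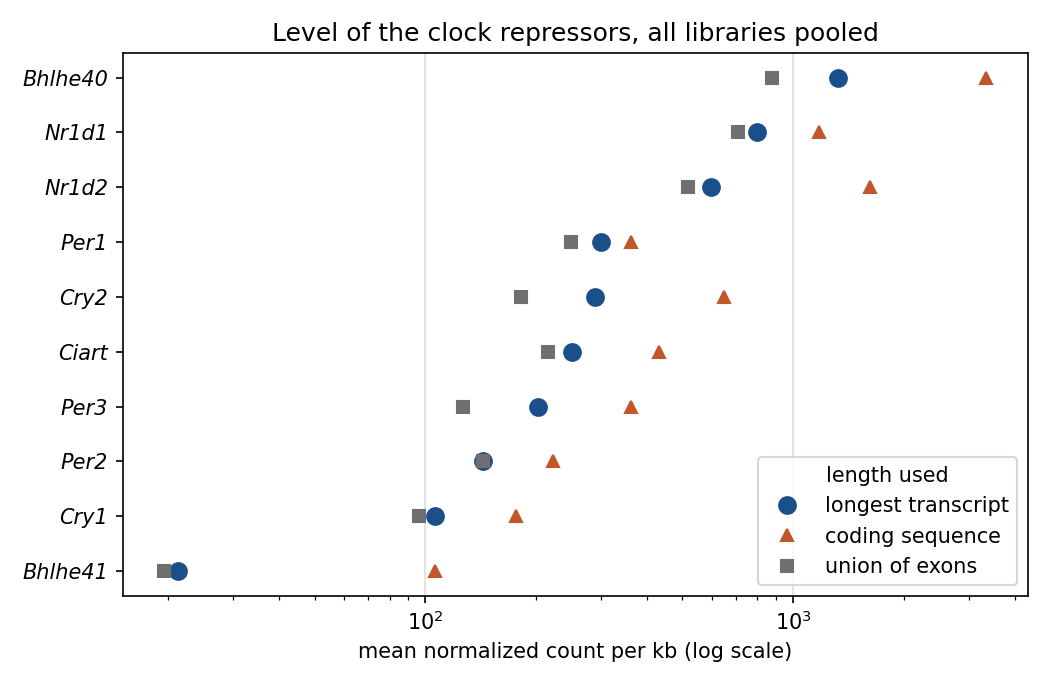
Mean normalized count per kb of each repressor on a log axis, pooled over all libraries of both genotypes and drawn without error bars. Circles use the longest transcript, triangles the coding sequence and squares the union of exons; *Bhlhe40* is highest and *Bhlhe41* lowest by each length, while *Nr1d1* and *Nr1d2* change places.

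The repressors as a set stood somewhat above the middle of the liver transcriptome. Their median level was 270 counts per kb, against 129 for the 12499 genes over 10 with a single gene model, and their median percentile was 67.1. *Bhlhe40*, *Nr1d1* and *Nr1d2* together made up 67.5% of the summed level of the set. The 5 *Per* and *Cry* genes had a summed level of 1042 counts per kb, 3.48 times the 299 of *Arntl*, *Clock* and *Npas2*, the activators they inhibit. This ratio was 2.02 per kb of coding sequence and 4.11 over the union of exons. The sums run over unequal numbers of genes, so the ratio does not compare levels per gene. Since most of these repressor transcripts vary through the day, the ratio also depends on the hour of collection, which is not given. It is a ratio of RNA levels, and proteins were not measured here. Per kb of coding sequence *Clock* had 576, above each *Per* gene and *Cry1* and below *Cry2* at 649. The longest annotated transcript of *Arntl* has a single exon, so its level of 125 counts per kb is uncertain. *Clock* had 152 and *Npas2* 22.1.

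Of the PAR bZIP factors and their repressor, *Dbp* had 1215 counts per kb of longest transcript, *Tef* 1059, *Nfil3* 482 and *Hlf* 400.1. The places of *Tef* and *Hlf* among the repressors depended on the length used. *Tef* lay below *Bhlhe40* on this scale and above it per kb of coding sequence, at 5161 against 3352. *Hlf* lay below *Nr1d2* on this scale and above it per kb of coding sequence, at 2550 against 1617. By each length, *Dbp* lay below *Bhlhe40* and above both Rev-erbs, and *Nfil3* below both Rev-erbs and above the *Per* and *Cry* genes. Of the proteins that mark repressors for breakdown or modify them, *Csnk1d* had 632 counts per kb and *Csnk1e* 76.0, the kinases that phosphorylate PER proteins. *Fbxl21*, a ubiquitin ligase part that binds cryptochromes, had 14.4. *Fbxw11*, *Gsk3b* and *Btrc* had 333, 169 and 116 counts per kb. Of the 3 period modifiers, *Nono* had 785 counts per kb, *Tipin* 74.3 and *Timeless* 16.4.

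**Figure D3:**
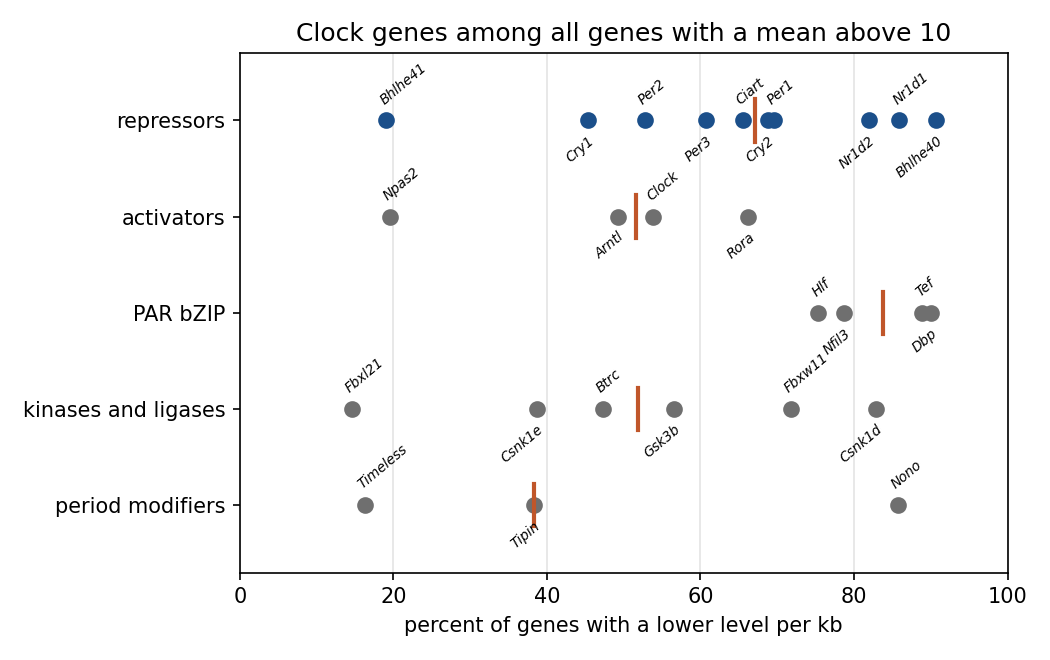
Percent of the 12499 genes over 10 that have a lower level per kb of longest transcript than each clock gene, by group. Points are genes, red bars are medians of the genes drawn, and *Rorb*, listed at 0, is left out; the repressors run from 19.1 (*Bhlhe41*) to 90.7 (*Bhlhe40*).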

How the data were processed

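Liver mRNA libraries of 3 WT and 3 *Pai-1*+/- mice were read as 75 base single-end reads. The authors aligned them to mm10 with STAR and used DESeq2, both through Illumina's RNA Express application, and the submitters' processing notes also list HOMER. Versions, annotation, filters and strand use are not given in the sources used here. The only values used are the signal in the authors' deposited table, which averages, over the libraries, the counts after scaling by size factors. Its other columns hold the authors' own fold changes, standard errors, test statistics and p-values and were not used. A second deposited table has 6 columns of counts headed by numbers that match no label or title, and these were not used in any step. The count test of genotype that was intended could therefore not be run. Depth per library, SDs and intervals were not computed.

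Mean counts were divided by the longest transcript, the longest coding sequence or the union of exons of GENCODE M21 (GRCm38). Of the 12971 genes with a mean above 10, 96.4% matched 1 gene model by symbol. Percentiles are the percent of these genes with a lower value. Motifs were matched letter by letter on both strands of RefSeq promoters, a palindrome counting once, and the search was tested on simulated sequences. A comparison of paralogous proteins was intended and not made. All 10 repressors are named, with clock genes and cell markers of fixed lists. *Thra* and the other overlapping genes, the ratios and sums of gene levels, and the counts of windows with repeated motifs were chosen after values were seen. Some genes of these lists are not reported here. The members and lists were chosen with earlier results of these data known. Python 3.11.15, NumPy 2.4.6, pandas 2.3.3 and Matplotlib 3.10.9 were used.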

Additional observations from a re-analysis of the deposited data

How the results depend on the processing

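No paired analysis was possible because the count columns carry no sample or replicate label, and for the same reason the edgeR fit of genotype, DESeq2, other size factors, a filter on low counts, the replicate block and leaving out each library were not run. The order of the 10 repressors by level depended on the length used. Of 10 genes, 4 kept the place they have per kb of longest transcript when levels were taken per kb of coding sequence, 4 with no correction for length and 6 over the union of exons. *Bhlhe40*, *Cry1* and *Bhlhe41* kept places 1, 9 and 10 under all of these. The number of repressors above the 75th percentile was 4 by mean count, 6 among all genes with a mean above 0 and 3 per kb. Restricting the motif search to the bases before the start site left the number of repressors with each motif as it was. The spread of each level between libraries needs no genotype label but was not computed, since the count columns were not used. How far the order varies between libraries is therefore not known, and no difference between neighbours in the order was tested.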
